A study of Mus musculus with 9 samples.

Results

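The Klk1 tissue kallikrein cluster is a run of neighbouring serine protease genes on mouse chromosome 7, comprising Klk1, which encodes true tissue kallikrein, and its close copies, whose names begin with Klk1b. Its members were taken by name, as the genes of the expression table called Klk1 or Klk1b followed by a number, which gave 13 of 22161 genes: Klk1 and 12 Klk1b genes. The cluster was chosen by the low level of Klk1b22 in Pkd2 knockout relative to wild type kidneys in these same libraries, so the comparison of Pkd2 knockout with wild type is given for the members as a description, with no test. Poly(A) RNA was sequenced from the kidneys of 9 C57BL/6 mice, 3 in each of 3 groups, at 10 weeks of age (postnatal day 70). The wild type mice are labelled by that word alone, so the labels do not tell which transgenes they carry. The Pkd2 knockouts were Pkd2fl/fl;Pax8rtTA;TetO-cre, and the double knockouts were Ift88fl/fl;Pkd2fl/fl;Pax8rtTA;TetO-cre. In both, doxycycline turns on Cre in cells that express the Pax8-driven transactivator, chiefly those of the kidney tubules, so other kidney cells keep the floxed genes intact. Mice of every group drank 2 mg/ml doxycycline for 2 weeks from postnatal day 28. Pkd2 encodes the polycystin-2 channel that is mutated in some families with dominant polycystic kidney disease, and the product of Ift88 is a transport protein needed to build cilia.

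Tissue kallikrein cuts kininogens to release kinins, short peptides that act through the bradykinin receptors Bdkrb1 and Bdkrb2 to widen vessels and to promote salt and water excretion. In the kidney it is made mainly by cells of the connecting tubule and is secreted into the urine. Rodents carry many tandem copies of the gene, best known from the submandibular gland of male mice, where several of their products process or bind growth factors. Klk1b22 encodes an epidermal growth factor-binding protein, as does Klk1b9. Klk1b3 and Klk1b4 encode the gamma and alpha subunits of the nerve growth factor complex, the second of which lacks protease activity.

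In the GENCODE M21 annotation of GRCm38 all 13 members lie on the plus strand, between positions 43950664 and 44229618 of chromosome 7, a stretch of 278955 bases. Which build the authors used is not stated in the sources used here. Klk1b22 occupies chr7:44112673-44116922 and is the seventh member along the chromosome, while Klk1 occupies chr7:44225360-44229618 and is the last. The main transcript of each member has 5 exons and is 839 to 1391 bases long. The 250 bases before the RefSeq start (GRCm38.p6, plus strand) are printed for Klk1b22, whose level differed most between groups, for Klk1b9, the member with the most similar window, and for Klk1, the most abundant member. Capitals mark TTTAAA, a box of the TATA type.
Klk1b22, chr7:44112423-44112672: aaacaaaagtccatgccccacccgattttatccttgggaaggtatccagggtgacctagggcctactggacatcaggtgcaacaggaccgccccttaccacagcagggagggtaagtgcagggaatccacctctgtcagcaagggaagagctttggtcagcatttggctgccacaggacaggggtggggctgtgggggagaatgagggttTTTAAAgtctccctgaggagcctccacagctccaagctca
Klk1b9, chr7:43975811-43976060: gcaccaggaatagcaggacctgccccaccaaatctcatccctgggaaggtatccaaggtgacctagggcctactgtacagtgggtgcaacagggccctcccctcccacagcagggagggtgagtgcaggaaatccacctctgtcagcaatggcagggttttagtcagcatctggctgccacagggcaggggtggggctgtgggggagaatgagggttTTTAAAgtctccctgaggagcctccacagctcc
Klk1, chr7:44225110-44225359: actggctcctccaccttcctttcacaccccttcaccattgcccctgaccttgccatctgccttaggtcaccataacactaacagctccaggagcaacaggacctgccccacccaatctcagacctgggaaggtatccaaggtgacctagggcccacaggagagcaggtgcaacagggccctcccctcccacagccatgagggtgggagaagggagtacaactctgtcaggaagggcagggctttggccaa
The letters TTTAAA, which read the same on both strands, occur in the 250-base window of 11 of 13 members. They occur in 12.1% of 32851 RefSeq promoter windows of the same length. The windows of Klk1b21 and Klk1 were those without. Each window stops at the RefSeq start, so a box beyond that start would be missed. For Klk1b21 the window stops at position 44102291, before the GENCODE start at 44102328. The last bases printed for Klk1 resemble bases of Klk1b22 that lie before its box. These windows therefore do not show that the Klk1b21 and Klk1 promoters lack the box. The box begins 40 bases before the start in Klk1b22 and 33 bases before it in Klk1b9. Over 230 aligned bases the Klk1b9 window was 89.6% identical to that of Klk1b22. Local alignment of the Klk1 window covered only 146 bases, with 79.5% identity. The alike windows of Klk1b22 and Klk1b9 went with very different levels in the wild types, given below for each mouse.

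Because reads of close paralogs can be assigned to the wrong copy, the members' main transcripts were compared with each other. Identity over the 78 pairs ranged from 81.3% to 94.4%, the highest value being that of Klk1 with Klk1b5. Klk1b22 was 83.8% to 88.4% identical to the other members, closest to Klk1b21, and 84.6% identical to Klk1. Of the 806 windows of 50 bases in the Klk1b22 transcript, 107 (13.3%) occurred without mismatch in a transcript of another gene. Klk1b16 held 42 of these, the most of any gene, and Klk1 held 1. Of the 756 windows of 100 bases in Klk1b22, 0 occurred in another gene. In Klk1, 28.4% of 50-base windows and 6.08% of 100-base windows were shared, most of them with Klk1b5. Across the members, the shared fraction at 50 bases ran from 10.1% for Klk1b16 to 33.9% for Klk1b24. Of the 183 shared 50-base windows of Klk1b8, 130 occurred in Klk1b26, which the expression table does not hold under that name. Klk1b26 was therefore not a member and had no part in the identities above. Read length, and the treatment of reads that match several genes, are not stated there either. The small values of the low members therefore remain uncertain as to which copy they came from.

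**Figure D1:**
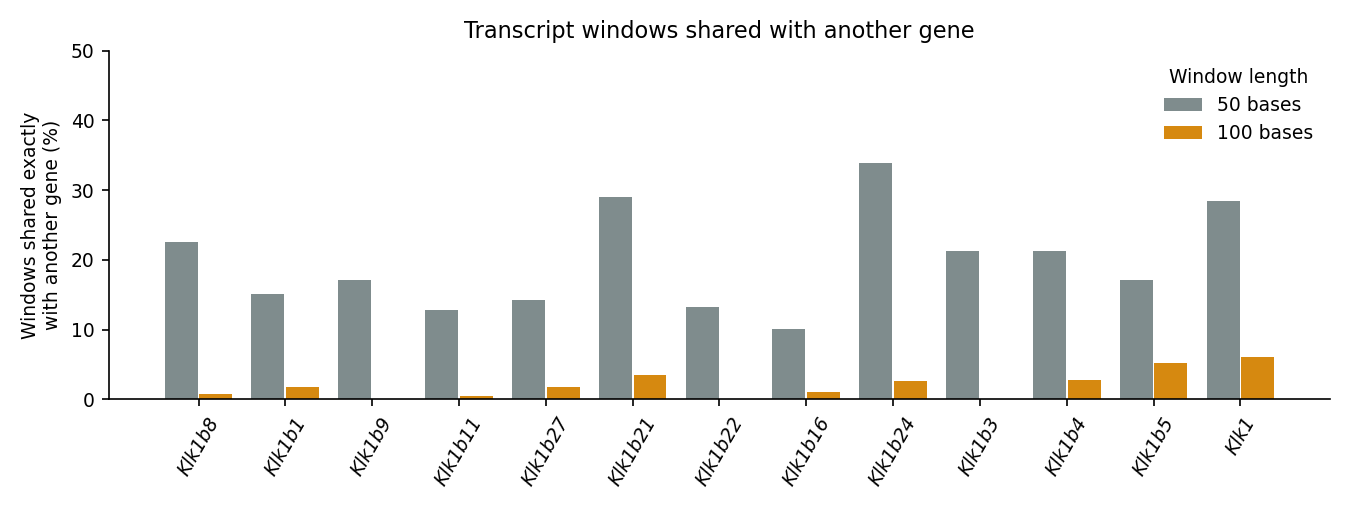
Percentage of each member's transcript windows of 50 and of 100 bases that occur without mismatch in a transcript of another gene. Klk1b22 has 13.3% shared windows at 50 bases and 0 at 100 bases.

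Values are the authors' normalized counts per gene, which sum to between 40454151 and 42874467 per library. In 7 libraries the values were turned back into reads, 37056843 to 47314829 per library. The targeted genes went with the labels: Pkd2 was 14095 ± 375 (SD, n = 3) in wild types, 5118 ± 414 in Pkd2 knockouts and 4687 ± 789 in double knockouts, and Ift88 was lower in the double knockouts alone (1085 ± 41.0, 1140 ± 66.0 and 752 ± 71.4 in the same order). The sex of the mice is not labelled, but Xist ranged from 4.35 to 20.4 and Ddx3y from 3130 to 4170 over the 9 libraries, so none carried the pattern of a female. Among mouse names, replicate 3 of the wild type and of the Pkd2 knockout group has a prefix unlike the other mice of its group, and the groups share no prefix, so prefix and genotype cannot be told apart. In whole kidney, fewer cells of a type and less RNA per cell cannot be told apart either.

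Klk1b22 was abundant in wild type kidneys and close to absent from both kinds of mutant. Wild type mice had 1495, 544 and 716 normalized counts in replicates 1, 2 and 3. The Pkd2 knockouts had 9.93, 14.95 and 1.95, and the double knockouts had 17.3, 14.5 and 13.4. The lowest wild type mouse was thus far above the highest of the 6 mutants, while the mutant groups overlapped. In reads, the wild type replicates 2 and 3 held 483 and 658, the Pkd2 knockout replicates 2 and 3 held 16 and 2, and the double knockouts held 17, 16 and 14. The group means were 919 ± 507 for wild types, 8.94 ± 6.56 for Pkd2 knockouts and 15.1 ± 2.00 for double knockouts (SD, n = 3 each). The Pkd2 knockout mean was 103-fold below the wild type mean, and the double knockout mean was 61.0-fold below it. Among wild types, replicate 1 stood above the other two mice.

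The comparisons with the double knockouts were not used in choosing the genes, although they share libraries with the comparison that was. Across all 15740 genes with a mean of at least 10, Klk1b22 fell in double knockout relative to wild type kidneys, with a difference of -5.71 ± 0.59 (SE) on the log2(value + 1) scale, a 95% interval from -7.04 to -4.38 and a limma adjusted p of 0.00472. The call was kept in each of the 9 fits that left out 1 library, where the limma adjusted p ran from 0.000935 to 0.0284. It was lost in limma on the 7 libraries whose reads were recovered, with a log2 difference of -5.29 and an adjusted p of 0.0599. Double knockout and Pkd2 knockout kidneys differed by 0.997 on the log2 scale (95% interval -0.34 to 2.33, limma adjusted p = 0.636), so neither a somewhat lower nor a several-fold higher level in the double knockouts was outside the error. The log2 difference between Pkd2 knockout and wild type was -6.71, given as a description.

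**Figure D2:**
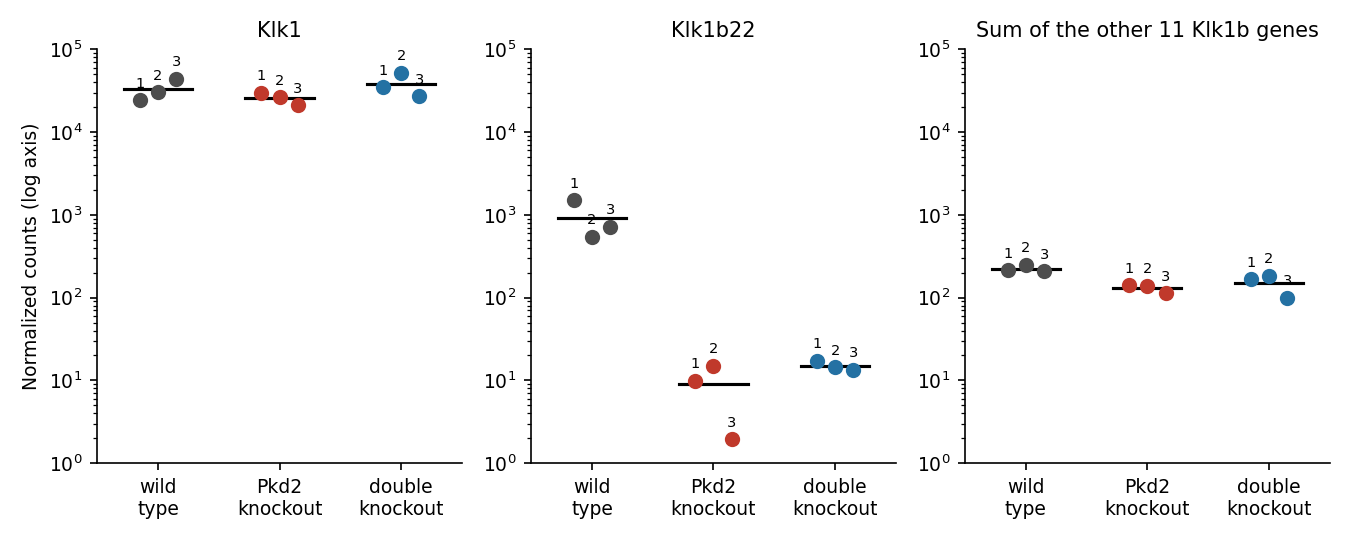
Normalized counts of Klk1, Klk1b22 and the other Klk1b genes together in each of the 9 mice, on a log axis; each point is a mouse, its digit the replicate number, and the bars are group means. Klk1 overlaps between all groups, whereas Klk1b22 is 544 or more in every wild type and 17.3 or less in every mutant mouse.

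Klk1 itself was 1 of the most abundant transcripts of these kidneys, ranking from 56 to 208 among all genes in the 9 libraries. Wild type mice had 24110, 30325 and 44126 normalized counts, Pkd2 knockouts had 30012, 26184 and 20949, and double knockouts had 34935, 51826 and 27013. Each pair of groups overlapped, with wild type replicate 3 and double knockout replicate 2 the highest mice and Pkd2 knockout replicate 3 the lowest. Group means were 32854 ± 10245, 25715 ± 4550 and 37925 ± 12673 (SD, n = 3 each) in wild type, Pkd2 knockout and double knockout. The log2 difference between Pkd2 knockout and wild type was -0.32. It was -0.09 without wild type replicate 3, and 0.05 when replicate 3 of both groups was left out, so its sign rested on those mice. Double knockouts differed from Pkd2 knockouts by 0.52 ± 0.27 (SE) on the log2 scale (95% interval -0.09 to 1.14, limma adjusted p = 0.561). From wild type they differed by 0.20 ± 0.27 (95% interval -0.41 to 0.81, limma adjusted p = 0.825). Neither difference exceeded the spread between mice, and the intervals are too wide to call the groups alike.

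The sum over the cluster followed Klk1, which made up 93.4% to 98.0% of it in wild type and 99.4% to 99.6% in mutant mice. The cluster sum was 33996 ± 9932 for wild types, 25855 ± 4569 for Pkd2 knockouts and 38090 ± 12712 for double knockouts (SD, n = 3 each). The 12 Klk1b genes together gave 1710, 793 and 923 normalized counts in the wild types, 151, 154 and 115 in the Pkd2 knockouts and 184, 198 and 113 in the double knockouts. Klk1b22 supplied 87.4%, 68.6% and 77.6% of that sum in the wild types but 1.69% to 9.70% in the Pkd2 knockouts and 7.31% to 11.9% in the double knockouts. Of the difference of 1002 normalized counts between the wild type and Pkd2 knockout means of the Klk1b sum, 910 came from Klk1b22 and 92.5 from the other 11 genes. Relative to wild type, the double knockout sum was lower by 977, of which Klk1b22 gave 904. Klk1b22 ranked first among the 12 Klk1b genes in each wild type mouse, and took ranks 7, 5 and 10 in the Pkd2 knockouts and 5, 6 and 2.5 (a tie) in the double knockouts.

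Set against Klk1 in the same library, Klk1b22 gave 62.0, 17.9 and 16.2 counts per 1000 of Klk1 in the wild types and at most 0.571 in the Pkd2 knockouts and 0.497 in the double knockouts. The other 11 Klk1b genes together gave 4.69 to 8.91 per 1000 of Klk1 in the wild types, 4.70 to 5.40 in the Pkd2 knockouts and 3.55 to 4.78 in the double knockouts. The wild type range overlapped those of the mutants only through replicate 3, at 4.69, the wild type mouse with the most Klk1. Wild type replicates 1 and 2, at 8.91 and 8.21, were above every mutant. For Klk1b22 every wild type was above every mutant. Not divided by Klk1, the sum of those 11 genes did not overlap between wild types and mutants. It was 207 to 249 normalized counts in the wild types, 113 to 141 in the Pkd2 knockouts and 99.7 to 184 in the double knockouts. Per kilobase of main transcript, the wild type level of Klk1b22 was 1074 ± 593 normalized counts, far under Klk1 at 34438 ± 10739 and well above Klk1b9 at 50.3 ± 11.4, the next member. In Pkd2 knockouts, Klk1b22 per kilobase was 10.5 ± 7.67, below Klk1b5 (31.8 ± 4.63) and Klk1b9 (29.9 ± 6.05), whose values do not differ beyond their spread.

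The other growth factor-binding and nerve growth factor members were expressed at low levels. Klk1b9 had 39.2, 55.2 and 37.0 normalized counts in the wild types, 24.8, 31.8 and 21.4 in the Pkd2 knockouts and 33.6, 38.1 and 11.5 in the double knockouts. Klk1b3, the gamma nerve growth factor subunit, had 21.1, 34.9 and 21.8, then 11.9, 16.8 and 7.80, then 21.4, 23.6 and 13.4 in the same order. For both genes every Pkd2 knockout was below every wild type mouse, and the double knockouts overlapped with both groups. Klk1b4, the alpha subunit, was at 0 to 6.34 in the 9 libraries and was too low to compare.

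The remaining members were also low. Klk1b5, the copy closest to Klk1, had 58.3, 57.5 and 61.0 normalized counts in the wild types, 51.6, 41.1 and 39.97 in the Pkd2 knockouts and 45.8, 54.4 and 33.5 in the double knockouts. Klk1b24 had 17.1, 21.4 and 16.3, then 11.9, 11.2 and 5.85, then 14.2, 12.7 and 5.75. In both, the wild types were above all 6 mutants, though the margin was a few counts. Klk1b8 (26.1, 21.4 and 16.3, then 14.9, 11.2 and 13.6, then 18.3, 15.4 and 8.62) separated wild types from Pkd2 knockouts only. Klk1b27 had 18.1, 22.5 and 17.4 in the wild types, 11.9, 18.7 and 11.7 in the Pkd2 knockouts and 9.16, 17.2 and 3.83 in the double knockouts, so its wild types were above the double knockouts but overlapped with the Pkd2 knockouts. The 5 members with a mean under 10 were not tested. Of these, Klk1b16, known as gamma-renin, had 16.1, 10.1 and 11.97 in the wild types against 0.934 to 2.92 in the Pkd2 knockouts and 2.72 to 5.75 in the double knockouts, again without overlap. Klk1b16 is also the gene that shares most 50-base windows with Klk1b22. Whether reads of Klk1b22 were counted as Klk1b16 was not tested. Klk1b11 ran from 4.97 to 17.4 over the 9 libraries, Klk1b21 from 0 to 6.11 and Klk1b1 from 0 to 4.02. With Klk1b22 left out, the Klk1b genes summed to 224 ± 22.4 for wild types, 131 ± 15.6 for Pkd2 knockouts and 150 ± 44.6 for double knockouts (SD, n = 3 each).

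**Figure D3:**
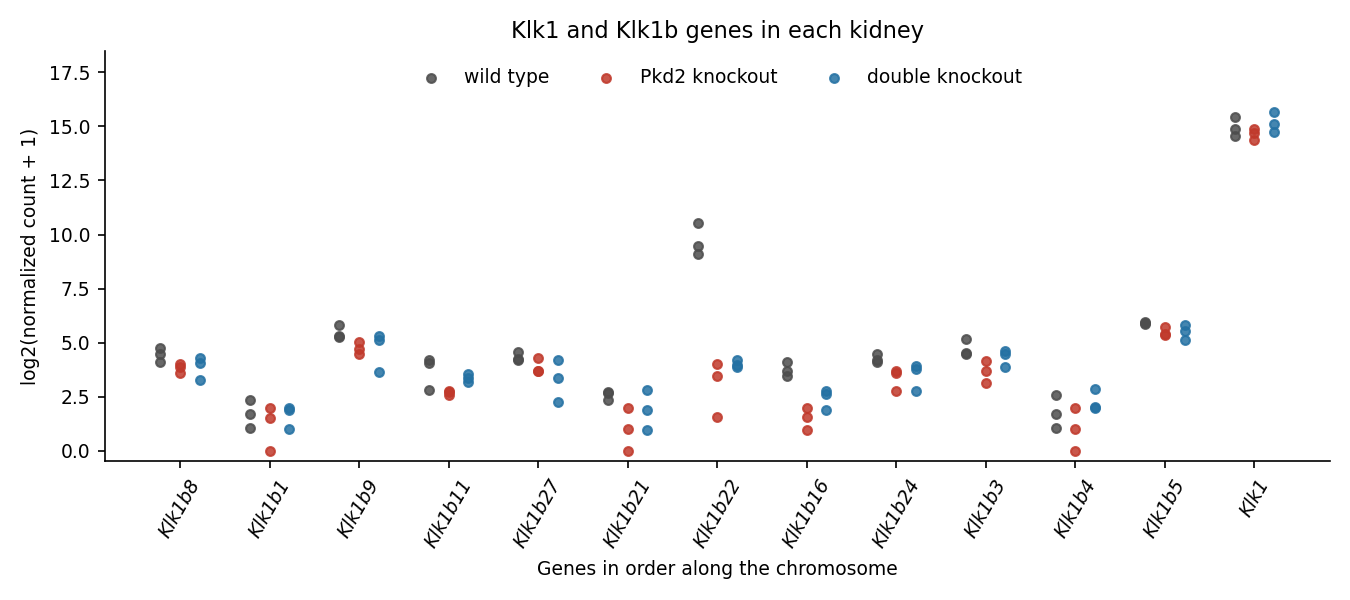
Level of each of the 13 members in each of the 9 kidneys as log2(normalized count + 1), with the genes in their order along the chromosome and each point a mouse of the group given by its colour. Klk1 is highest in every mouse, and only Klk1b22 shows wild types, at 544 to 1495 normalized counts, far above both mutant groups.

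Of the 13 members, 8 had a mean of at least 10 and entered the fit. The mean was lower in Pkd2 knockout than in wild type for all 13, as a description of genes chosen around this contrast. Wild type and Pkd2 knockout mice did not overlap for 6 of the 8, against 25.2% of all genes tested. Wild type and double knockout mice did not overlap for 4 of the 8, against 18.3% of all genes, and the 2 mutant groups overlapped for every one of the 8, against 15.2% of all genes without overlap. The lowest wild type mouse was above all 6 mutants for 3 of the 8 (Klk1b22, Klk1b24 and Klk1b5), against 4.62% of all genes. This count and the 6 of 8 use the contrast by which the cluster was chosen and include Klk1b22. The 4 of 8 includes Klk1b22 too and shares the wild type libraries with that contrast. These counts are therefore descriptions and no test of the cluster. Between double knockout and wild type, limma called 1 of 8 members lower, Klk1b22, and 0 higher, where 0.152% of all genes were called lower, 0.0762% higher and 0.229% in either direction. At an unadjusted p below 0.05, 2 of the 8 were lower in that comparison, Klk1b22 and Klk1b27. For the 7 tested members other than Klk1b22, the log2 differences ran from -1.07 to 0.20 and the limma adjusted p from 0.422 to 0.825. Between double and Pkd2 knockout, limma called 0 of 8 members, against 0.394% of all genes, and 0 passed at an unadjusted p below 0.05, in edgeR or in DESeq2. The median log2 difference over the 8 members was -0.68 for Pkd2 knockout against wild type, -0.68 for double knockout against wild type and 0.08 for double against Pkd2 knockout, and 0.00 over all genes in each. The first 2 medians share the wild type libraries.

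**Figure D4:**
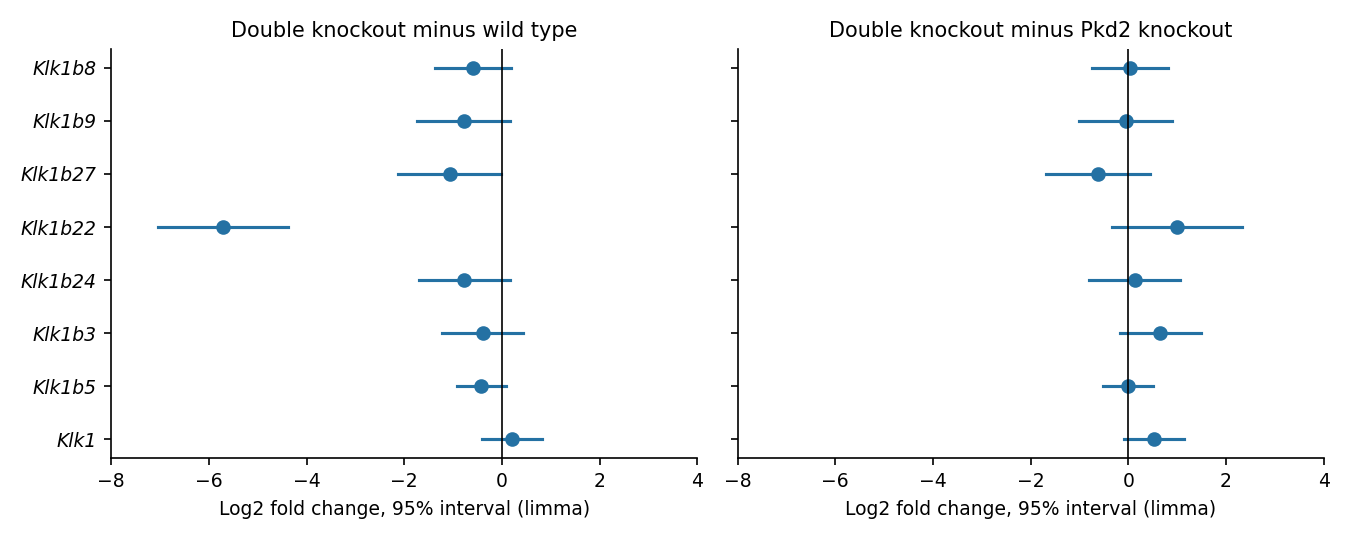
Log2 differences (points) with 95% intervals from limma (bars) of the 8 tested members, for double knockout against wild type on the left and against Pkd2 knockout on the right. Klk1b22 stands apart at -5.71 on the left, where the other members lie between -1.07 and 0.20, and on the right the intervals of all 8 include 0.

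The genes whose profile over the 9 mice was most like that of each leading member were ranked by the root mean square difference of log2 profiles, each centred on its own mean, among genes with a mean of at least 50. For Klk1, among 12300 genes, they were Soat1, a cholesterol esterifying enzyme (0.15), Hsd11b2, which inactivates glucocorticoids in aldosterone target cells (0.17), Lims2 (0.20), Tsen54 (0.20) and Oat, ornithine aminotransferase (0.21). Hsd11b2 had 6170, 6430 and 8030 normalized counts in the wild types, 6125, 5988 and 4476 in the Pkd2 knockouts and 7161, 8695 and 6042 in the double knockouts. It shared with Klk1 the high values of wild type replicate 3 and double knockout replicate 2. For Klk1b22 they were Ugt1a10 (0.88) and Ugt1a9 (1.40), encoding glucuronosyltransferases, then Ddit4 (2.09), Pvalb (2.21), the calcium buffer of the distal convoluted tubule, and the steroid hydroxylase Cyp2a4 (2.28). Ugt1a10 had 878, 865 and 1630 normalized counts in the wild types, 37.7, 39.2 and 17.5 in the Pkd2 knockouts and 34.6, 47.1 and 25.9 in the double knockouts. Ugt1a9 had 472, 463 and 868 in the wild types and at most 2.98 in any mutant. Both were thus high in wild types and low in both mutant groups, as Klk1b22 was, but their highest wild type mouse was replicate 3 and not replicate 1. Members of the Ugt1a locus share exons, so their reads cannot be fully split. These likenesses are across 9 libraries that share groups, and carry no test.

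**Figure D5:**
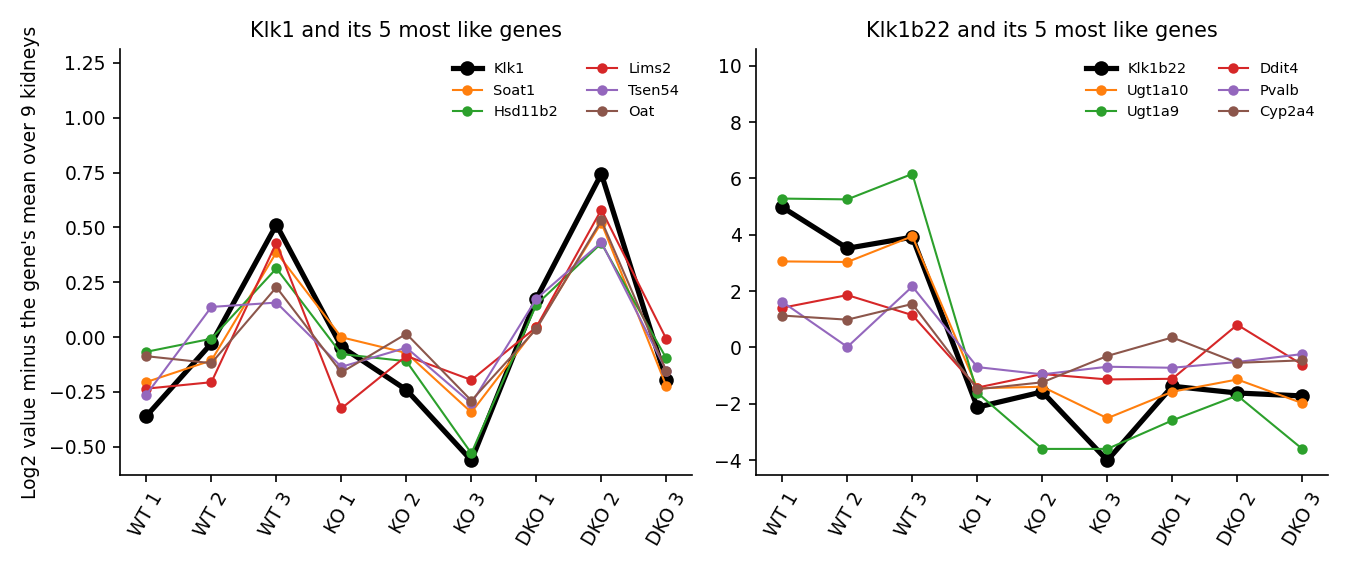
Log2 profiles over the 9 mice, centred on each gene's mean, of Klk1 and of Klk1b22 with the 5 genes most like each; the lines only join values of a gene, and WT, KO and DKO stand for wild type, Pkd2 knockout and double knockout. The Klk1 group spreads little and peaks in wild type replicate 3 and double knockout replicate 2, and the Klk1b22 group is high in the 3 wild types.

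The kallikrein-kinin pathway and the inputs to kallikrein control were read from 9 lists of 75 genes, of which 69 were in the table and 56 entered the fit. In Pkd2 knockout against wild type, limma called 6 of the 56 lower and 0 higher, where 1.25% of all genes were called lower, 1.14% higher and 2.40% in either direction. In double against Pkd2 knockout it called 1 higher and 0 lower (0.127% and 0.267% of all genes), and in double knockout against wild type 0 of 56, with 12 at an unadjusted p below 0.05, 0 in edgeR and 1 in DESeq2. Median log2 differences were -0.13, 0.09 and -0.08 in this order.

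Of the kininogens, the kallikrein substrates, Kng2 had 9283, 8585 and 9287 normalized counts in the wild types, 5875, 6007 and 6918 in the Pkd2 knockouts and 8077, 8098 and 6623 in the double knockouts. Kng2 fell in Pkd2 knockouts by 0.53 ± 0.10 (SE) on the log2 scale, with a limma adjusted p of 0.0295. That call was lost when any of wild type replicates 1, 2 or 3 or Pkd2 knockout replicates 1 or 2 was left out, where the limma adjusted p reached 0.115. It was also lost with quantile scaling, no trend or a replicate block. On the 7 libraries with recovered reads the adjusted p was 0.322 in edgeR, 0.0956 in DESeq2 and 0.309 in limma. The other kininogen gene Kng1 was near 16.0 ± 2.16, 12.2 ± 0.387 and 15.1 ± 2.89, and the kinin receptor Bdkrb2 was 21.6 ± 7.61, 21.9 ± 4.31 and 14.7 ± 2.52 in wild type, Pkd2 knockout and double knockout (SD, n = 3 each). Neither was called. The inducible receptor Bdkrb1 was at 3.38 or less in each library. None of the 10 kinin-degrading peptidases was called by limma or edgeR in any comparison, nor by DESeq2, while 3, 1 and 1 passed an unadjusted p below 0.05 in Pkd2 knockout against wild type, double against Pkd2 knockout and double knockout against wild type. Ace, the angiotensin-converting enzyme that also destroys bradykinin, was 16471 ± 1563, 13661 ± 1351 and 13747 ± 2392. Cpn1, the catalytic subunit of the kinin-cutting carboxypeptidase N, had 554, 643 and 67.5 normalized counts in the wild types, 1565, 1633 and 2372 in the Pkd2 knockouts and 2131, 2220 and 1894 in the double knockouts. All 6 mutants were above the wild types, of which replicate 3 was by far the lowest. The log2 differences of Cpn1 from wild type were 2.65 in Pkd2 knockouts (limma adjusted p = 0.0911) and 2.84 in double knockouts (limma adjusted p = 0.171). Without wild type replicate 3 they were 1.61 and 1.80, and both passed (limma adjusted p = 0.0136 and 0.00746).

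The inhibitor list held the clearest other change. Spink6, a Kazal-type inhibitor of kallikrein-related peptidases, had 172, 110 and 250 normalized counts in the wild types, 1.99, 0.934 and 0 in the Pkd2 knockouts and 237, 270 and 476 in the double knockouts. Thus it was close to absent from Pkd2 knockouts only, whereas Klk1b22 was low in both mutants. Spink6 fell in Pkd2 knockouts by 6.56 ± 0.46 (SE) on the log2 scale (limma adjusted p = 0.000514) and rose in double relative to Pkd2 knockouts by 7.45 ± 0.46 (limma adjusted p = 0.000226). Double knockouts and wild types differed by 0.89 (limma adjusted p = 0.495). Spink8, another Kazal-type gene, fell in Pkd2 knockouts by 0.67 ± 0.13 from 389 ± 27.1 to 245 ± 26.4 (SD, n = 3 each, limma adjusted p = 0.0332). This call was lost when any single wild type or Pkd2 knockout mouse was left out, with limma adjusted p up to 0.111. It was also lost with a replicate block or only the groups compared. On the 7 libraries with recovered reads it was lost in edgeR (adjusted p = 0.229) and limma (adjusted p = 0.223), but kept in DESeq2.

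Among growth factor and channel genes whose products kallikreins or related proteases can process, 1 of 10 was called. Egf, the epidermal growth factor precursor, had 105804, 103804 and 97547 normalized counts in the wild types, 50899, 47229 and 45149 in the Pkd2 knockouts and 63365, 82649 and 58240 in the double knockouts. All 6 mutants were below the wild types. The mutant groups did not overlap, as for 15.2% of all genes tested. Their log2 difference of 0.50, double against Pkd2 knockout, was not called (limma adjusted p = 0.163). Egf fell in Pkd2 knockouts by 1.10 ± 0.13 (SE) on the log2 scale (limma adjusted p = 0.00518), and double knockouts differed from wild types by -0.60 (limma adjusted p = 0.128). The call was lost in edgeR and in limma on the 7 libraries with recovered reads, the latter with an adjusted p of 0.0891. Of the 9 other kallikrein-related peptidase genes in the table, only Klk8, a neuronal and skin protease, was high enough to test. It was 27.6 ± 4.92, 22.4 ± 6.73 and 26.5 ± 4.94, with no call in limma, edgeR or DESeq2 and 0 at an unadjusted p below 0.05.

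Mouse Klk1b genes respond to androgen in the salivary gland, so genes with male-biased or female-biased levels in kidney were read as well. Of all genes tested, limma called 2.40% in Pkd2 knockout against wild type. It called 0.394% in double against Pkd2 knockout and 0.229% in double knockout against wild type. Of 14 male-biased genes, limma called only Cyp7b1, a steroid hydroxylase, which fell in Pkd2 knockouts by 0.98 ± 0.14 (SE) on the log2 scale from 13358 ± 1027 to 6783 ± 678 (SD, n = 3 each, limma adjusted p = 0.0118). Without wild type replicate 1 or Pkd2 knockout replicate 1 that call was lost, as it was on the 7 libraries with recovered reads in edgeR (adjusted p = 0.193) and limma (adjusted p = 0.178). Without replicate 3 of both the wild type and the Pkd2 knockout group, limma called 4 of the 14 in Pkd2 knockout against wild type. Over all genes it called 513 in that setting. In double knockouts Cyp7b1 differed from wild types by -0.87 (limma adjusted p = 0.0545), a difference that DESeq2 called. Kap, the abundant androgen-regulated kidney protein gene, was 1025101 ± 87983, 957698 ± 87041 and 774642 ± 151261 in wild type, Pkd2 knockout and double knockout (SD, n = 3 each), and was not called. The female-biased list gave 1 of 4, Cyp2a4, which has a near-identical paralog. It fell in Pkd2 knockouts by 2.23 ± 0.33 on the log2 scale (limma adjusted p = 0.0130). The call was lost without wild type replicate 2 or Pkd2 knockout replicate 1 or 2, with a limma adjusted p up to 0.0622, and in edgeR and limma on the 7 libraries (adjusted p = 0.193 and 0.163). Limma called Slc7a12, Prlr and Cyp4a14 in no comparison. Their log2 differences in double knockout against wild type were 1.95, 1.01 and 0.37, against -1.44 for Cyp2a4. Slc7a12 and Prlr were highest in double knockout replicate 1 (1213 and 1594) and overlapped between groups. The list medians were -0.17, 1.06 and 0.69 in Pkd2 knockout against wild type, double against Pkd2 knockout and double knockout against wild type. Of 8 aldosterone and glucocorticoid response genes, limma, edgeR and DESeq2 called 0 in each comparison, with 3 at an unadjusted p below 0.05 in Pkd2 knockout against wild type, 1 in double against Pkd2 knockout and 0 in double knockout against wild type. The 3 in Pkd2 knockout against wild type were Nr3c2, Sgk1 and Per1, all lower. Sgk1 was 7468 ± 1356, 3287 ± 422 and 7128 ± 6056, and Per1 was 6032 ± 1921, 2704 ± 561 and 4439 ± 2292. Fkbp5, the most abundant of the 8, was 5689 ± 1528, 7994 ± 3387 and 7689 ± 4218. Its mean was higher in Pkd2 knockouts, as were those of Nr3c1 and Zbtb16. The list median for Pkd2 knockout against wild type was -0.37 on the log2 scale.

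The genes that flank the cluster were read by position. Siglece, Ctu1 and Klk8 precede it, and 1700028J19Rik, 2410002F23Rik and Clec11a follow it. Of these 6, limma called only 1700028J19Rik, in Pkd2 knockout against wild type, where 2.40% of all genes were called. That gene had 348, 365 and 272 normalized counts in the wild types, 136, 164 and 181 in the Pkd2 knockouts and 252, 225 and 154 in the double knockouts. As for Klk1b22, every wild type mouse was above all 6 mutants, which held for 4.62% of all genes tested, and the mutant groups overlapped. It fell in Pkd2 knockouts by 1.03 ± 0.21 (SE) on the log2 scale (limma adjusted p = 0.0387), and in double knockouts it differed from wild types by -0.66 (limma adjusted p = 0.278). The call in Pkd2 knockouts was lost when wild type replicate 1 or 2, Pkd2 knockout replicate 1 or 2, or double knockout replicate 2 was left out. It was also lost with no trend or a replicate block. On the 7 libraries with recovered reads the adjusted p was 0.357 in edgeR, 0.136 in DESeq2 and 0.350 in limma. Within the cluster, the next gene on each side of Klk1b22 was Klk1b21 (0.958 to 6.11 in the double knockouts) and Klk1b16, which were at 4.02 to 5.63 and at 10.1 to 16.1 in the wild types.

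Markers of the tubule segments, among them those that make kallikrein, were summed in each mouse. Between double knockout and wild type, limma called 0 markers of any segment, against 0.229% of all genes. Between double and Pkd2 knockout it also called 0, against 0.394% of all genes. The calls below are those of Pkd2 knockout against wild type. The 6 connecting tubule markers summed to 33184 to 45720 normalized counts in wild types, 21120 to 26454 in Pkd2 knockouts and 23568 to 29734 in double knockouts, and limma called 2 of 6 lower in Pkd2 knockouts, Calb1 and Slc8a1, where 1.25% of all genes were called lower. Calb1, the calbindin of the connecting tubule, was 19444, 16338 and 22565 in the wild types, 11194, 12991 and 8970 in the Pkd2 knockouts and 9382, 13137 and 10457 in the double knockouts. The Calb1 call held in only 8 of 22 alternatives and was lost when any single wild type or Pkd2 knockout mouse, or double knockout replicate 1 or 3, was left out, with limma adjusted p up to 0.135. That of Slc8a1, a sodium-calcium exchanger, held in 19 and was lost without Pkd2 knockout replicate 1 (limma adjusted p = 0.0508). The 4 distal convoluted tubule markers summed to 39513 to 49378, 30744 to 31461 and 30666 to 41516, with 0 called lower. Pvalb among them had 1244, 410 and 1818 in the wild types, 249, 208 and 251 in the Pkd2 knockouts and 245, 283 and 344 in the double knockouts. Its wild types were above all 6 mutants, as for 4.62% of all genes (Pkd2 knockout against wild type, limma adjusted p = 0.0507). Slc12a3, Trpm6 and Wnk4 overlapped between wild types and double knockouts. The 7 thick ascending limb markers summed to 352011 to 372147, 164669 to 204054 and 216379 to 288663, and 4 of 7 fell in Pkd2 knockouts (Slc12a1, Umod, Ptger3 and Egf). Of these 4, only Egf kept its call whichever single library was left out, and Umod held in 12 of 22 alternatives, failing without any wild type mouse or Pkd2 knockout replicate 1 or 2. The Slc12a1 call was lost without wild type replicate 2, and that of Ptger3 without wild type replicate 2 or Pkd2 knockout replicate 1. Principal cell markers summed to 26580 to 30420, 20631 to 24527 and 18829 to 30318, and intercalated cell markers to 10065 to 10392, 7509 to 8164 and 8791 to 11884. In Pkd2 knockouts 0 principal cell markers and 1 of 6 intercalated cell markers, Atp6v1g3, were called lower. The 7 proximal tubule markers summed to 521829 to 600002 in the 9 libraries, with 1 called higher in Pkd2 knockouts, where 1.14% of all genes were. That gene, the lactate transporter Slc5a12, had 10426, 10790 and 12918 normalized counts in the wild types, 22918, 26026 and 21365 in the Pkd2 knockouts and 17160, 28153 and 17797 in the double knockouts (Pkd2 knockout against wild type 1.04 ± 0.18 on the log2 scale, limma adjusted p = 0.0252). The calls of Atp6v1g3 and Slc5a12 were lost without wild type replicate 1 or 2 or Pkd2 knockout replicate 1, and that of Slc5a12 also without Pkd2 knockout replicate 2. Every marker call named here was also lost in edgeR and in limma on the 7 libraries with recovered reads. The part of these marker levels in the kallikrein values was not tested. Tissues next to the kidney or rich in kallikreins were read as well. Of the salivary gland list, 1 of 5 markers was in the table, at 124 to 222 with overlap between groups. Of 7 exocrine pancreas markers 3 were in the table, and only Cela1 reached a mean of 10, the list summing to 1453 to 2103 with overlap between groups. The 4 adipose markers summed to 182 to 659 in wild types, 202 to 1664 in Pkd2 knockouts and 265 to 328 in double knockouts, highest in Pkd2 knockout replicate 3.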

How the data were processed

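Per the series design, the 3 mice of a group are biological replicates, and groups were taken from the sample titles. The deposited values are a signal, normalized counts per gene, which the authors made with STAR 2.5.0, HTSeq 0.6.1 and DESeq2, per the submitters' processing notes. Genome build, annotation, strandedness, read length and the release of DESeq2 are not stated in the sources used here, so close paralogs and overlapping genes may exchange reads. All values were whole multiples of 1 read in each library, 100% at a tolerance of 0.05. In 7 libraries the values were turned into reads. Replicate 1 of the wild type and of the Pkd2 knockout group has a step near 1 (1.00434 and 0.99309), and these 2 were left out of count tests. Their values are whole multiples of that step too, so leaving them out was a choice of processing. Count tests on all 9 libraries were not run. On those reads edgeR called 11, 10 and 10 genes in Pkd2 knockout against wild type, double against Pkd2 knockout and double knockout against wild type.

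The main test was limma 3.58.1 in R 4.3.3 on log2(normalized count + 1), with 1 mean per group, an intensity trend, no block, and Benjamini-Hochberg adjustment over 15740 genes (mean of 10 or more), at a threshold of 0.05, two-sided. A pseudocount understates the fold change of low genes. With these settings limma called 377, 62 and 36 genes in the same order. Alternatives were pseudocounts of 0.1 and 10, no filter, a mean of at least 50, TMM and quantile scaling, no trend, only the groups compared, a replicate block, edgeR 4.0.16, DESeq2 1.42.0 and limma on 7 libraries, and each library left out. The limma script was tested on simulated data. Sequences and positions came from GENCODE M21 (GRCm38) and RefSeq (GRCm38.p6), where all 13 members matched, and were aligned with Biopython 1.88.

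The members and lists were chosen with earlier results of these data known. Named genes are all members, each list's called genes (up to 4) or otherwise its most abundant one, the 5 most like Klk1 and Klk1b22, and the 3 nearest tested genes on each side. Kng1, Bdkrb2, Bdkrb1, Cpn1, Kap and the marker genes were named after their values were seen.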

Additional observations from a re-analysis of the deposited data

How the results depend on the processing

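The call of Klk1b22 in double knockout against wild type held in 21 of 22 alternatives. In limma on the 7 libraries with recovered reads the number of cluster genes called was 0 in place of 1. The comparison of double with Pkd2 knockout called 0 cluster genes in all 22. The replicate numbers did not pair the mice (correlations of same-numbered deviations from -0.14 to 0.21), and with a replicate block the counts of all genes called were 217, 15 and 20 in Pkd2 knockout against wild type, double against Pkd2 knockout and double knockout against wild type, in place of 377, 62 and 36, with Klk1b22 kept. In the same order of comparisons, edgeR gave 11, 10 and 10 genes and limma on the 7 libraries gave 13, 11 and 11. DESeq2 gave 149 genes in double against Pkd2 knockout and 111 in double knockout against wild type. For double against Pkd2 knockout, quantile scaling gave 31 genes and fitting only the groups compared gave 28. Leaving out 1 library gave 70 to 436, 8 to 155 and 18 to 58 genes, lowest without wild type replicate 2, Pkd2 knockout replicate 1 and wild type replicate 1. Without replicate 3 of both the wild type and the Pkd2 knockout group, 311 genes passed in double against Pkd2 knockout and 115 in double knockout against wild type. Of the pathway list genes, 6, 1 and 0 were called. In Pkd2 knockout against wild type the number was 1 in edgeR and in limma on the 7 libraries, 10 without both replicates 3, and 2 to 8 on leaving out 1 library. In double against Pkd2 knockout it was 2 in DESeq2, 4 without both replicates 3 and 1 to 3 on leaving out 1 library. In double knockout against wild type it was 1 in DESeq2 and without both replicates 3, and 0 to 1 on leaving out 1 library. No call reversed its direction. Genes with few reads in every group, among them the low Klk1b members, are limited by depth. Causes of these differences were not tested.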
